A study of Mus musculus with 12 samples.

Results

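The marker genes of hippocampal interneurons were followed through 12 mouse hippocampi from experiments with neuronal sponges against miR-9 or miR-34. They are 10 genes chosen by name as established interneuron markers (Gad1, Gad2, Slc32a1, Sst, Pvalb, Vip, Npy, Cck, Lhx6 and Reln) out of 24209 genes in the deposited tables, and for each the counts of its RefSeq transcript entries were summed. A total of 8 of the 10 had on average more than 10 scaled reads in both experiments, as had 12389 of the 24209 genes, and the other two, Cck and Lhx6, had few reads or none. Wild-type male C57BL/6 mice were injected bilaterally into the hippocampus at 10 weeks of age with AAV2/5 vectors, and the dissected hippocampi of single mice were sequenced 10 weeks later. In the miR-9 experiment 3 mice had received GFP-miR-9sp and 3 had received GFP Ctrl, and in the miR-34 experiment 3 had received GFP-miR-34sp and another 3 GFP Ctrl. All vectors expressed GFP from the human synapsin promoter, which is active in neurons, and the sponge vectors added repeated imperfect binding sites that sequester the miRNA. The paper reports higher levels of probable miR-9 targets after the miR-9 sponge, and for miR-34 a similar trend that was not significant. It describes GFP in neurons throughout the hippocampus, with most weight on the dentate gyrus. The tissue held transduced and untransduced neurons together with glia and vessels. A lower level of a marker in such tissue can come from fewer cells or from less RNA per cell, and these cannot be told apart here.

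Interneurons are the local inhibitory neurons of the hippocampus. They make GABA from glutamate with the glutamate decarboxylases encoded by Gad1 and Gad2 and load it into vesicles with the transporter encoded by Slc32a1. Subclasses are told apart by peptides and calcium-binding proteins: somatostatin (Sst) marks many dendrite-targeting cells, parvalbumin (Pvalb) fast-spiking cells that target the soma and axon, vasoactive intestinal peptide (Vip) many cells that inhibit other interneurons, cholecystokinin (Cck) a class of basket cells, and neuropeptide Y (Npy) neurogliaform and other cells. Lhx6 is a transcription factor of interneurons born in the medial ganglionic eminence, and Reln encodes reelin, a secreted glycoprotein made by interneurons of the adult hippocampus and by Cajal-Retzius cells.

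The miRNAs that the sponges bind are shown because their seeds, in capitals (bases 2 to 8), set the sites searched in the markers. The mature sequences are from RefSeq (GRCm38.p6). Both members of the miR-34 family printed here have the same seed.
mmu-miR-9-5p: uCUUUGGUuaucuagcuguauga
mmu-miR-34a-5p: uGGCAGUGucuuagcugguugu
mmu-miR-34b-5p: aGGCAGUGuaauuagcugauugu

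The longest 3′ UTR of each marker in GENCODE M1, on the mm9 build, was searched on its own strand for the 7 bases complementary to a seed, ACCAAAG for miR-9 and CACTGCC for miR-34. A single site was found among the 10 markers, a miR-9 match in Gad2 at position 1117 of a 3′ UTR of 3528 bases (chr2:22546983-22546989, plus strand). It is printed with its surroundings, the match in capitals.
Gad2 site: gcctgctttcaACCAAAGgttgatattagt
The base after the match is not A, so it was not an 8mer. Of 10574 tested genes with an annotated 3′ UTR (median length 1192 bases), 13.9% held the miR-9 heptamer and 17.4% the miR-34 heptamer. The 3′ UTRs of Sst and Npy were short, at 148 and 180 bases, while that of Reln had 1909 bases and neither heptamer. A match is a description of the letters and not of binding.

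The markers lie in separate places of the genome apart from 4 on chromosome 2. On mm9, Gad1 is annotated at chr2:70391129-70440071, Gad2 at chr2:22477725-22549394, Slc32a1 at chr2:158436494-158441484 and Lhx6 at chr2:35937470-35960928. The peptide genes are at chr16:23889667-23890930 (Sst), chr6:49772709-49779506 (Npy), chr10:4698927-4707323 (Vip) and chr9:121398943-121404807 (Cck). Pvalb is at chr15:78021544-78036830 and Reln, the longest of them, at chr5:21390272-21850523. Some of these genes overlap a counted non-coding gene: Gm14204, over Slc32a1, had 1813 reads in the 12 mice together against 23599 for Slc32a1, and Gad1os had 37 against 112905 for Gad1. Whether strand was used in counting is not given in the sources used here.

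Each mouse of the miR-9 experiment gave 17279620 to 24428477 counts, and those of the miR-34 experiment gave 11029604 to 16934133. Levels are given below as CPM, counts scaled to a common library size, after TMM scaling within an experiment. The excitatory neuron gene Slc17a7 had a mean of 2323 CPM in the GFP Ctrl mice of the miR-9 experiment. It had 2077 CPM in those of the miR-34 experiment, so a marker of excitatory neurons was present at a high level. Markers of the choroid plexus, the epithelium next to the dissected tissue, were uneven: their summed CPM was 122 to 738 and 53.7 to 876 in the GFP Ctrl and GFP-miR-9sp mice of the miR-9 experiment, and 648 to 2366 and 72.2 to 151 in the GFP Ctrl and GFP-miR-34sp mice of the miR-34 experiment.

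Lhx6 and Cck were barely counted. All 4 RefSeq entries of Lhx6 had 0 reads in all 12 mice, and with 3 reads as the smallest detectable number this allows up to 1.23e-05% to 2.72e-05% of a mouse's reads, for counting error only. Cck had 2 entries, of which the shorter had 0 reads in every mouse and the longer had 1 to 9 reads per mouse and 56 in all. Both genes belong to those listed with several entries, whereas each of the 8 counted markers had a single entry. Among coding genes with 1 entry, 63.4% of 16195 had more than 10 scaled reads in both experiments and 15.3% were listed at 0 in all mice. Among those with 2 entries the shares were 36.2% and 19.0% of 2507 genes, and with 4 or more entries 26.9% and 28.9% of 933 genes. The median sum over 12 mice was 1519 reads for genes with 1 entry and 19 reads for those with 4 or more. How reads shared by several entries were counted is not given in the sources used here, so the values of Lhx6 and Cck are those of the table and say nothing of their absence from the tissue. No fold change is given for them.

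**Figure D1:**
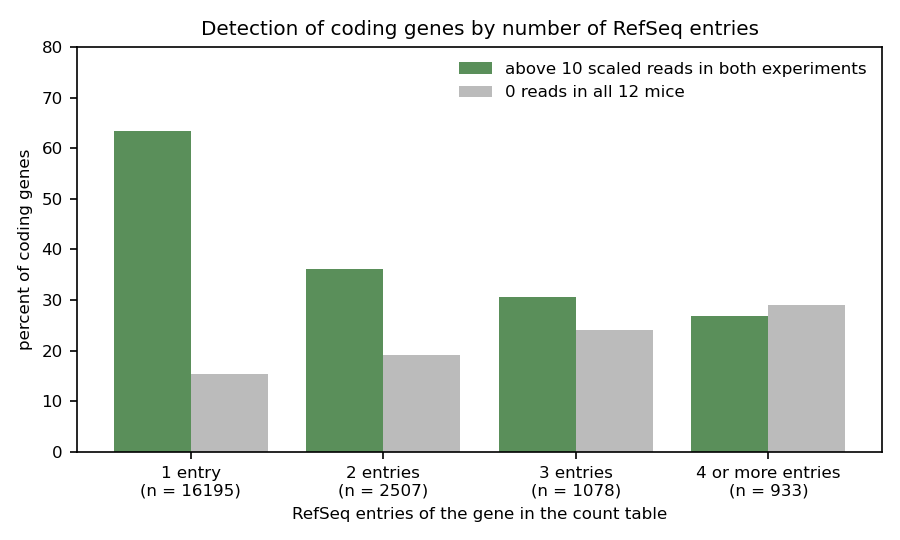
Coding genes grouped by the number of RefSeq entries they have in the count table (x axis, with the number of genes), and the percent of each group (y axis) above 10 scaled reads in both experiments (green) or at 0 reads in all 12 mice (grey). The green bars fall from 63.4% at 1 entry to 26.9% at 4 or more, where the grey bar is at 28.9%. Cck has 2 entries and Lhx6 has 4.

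Per length, the somatostatin transcript was the most abundant of the 8 counted markers in every group. In RPKM, reads scaled for depth and transcript length, the mean level in the GFP Ctrl mice of the miR-9 experiment was 403 ± 14.0 (SD, n = 3) for Sst, 172 ± 1.93 for Gad1, 83.4 ± 2.79 for Npy and 64.2 ± 2.51 for Gad2. Below these came Slc32a1 at 44.1 ± 1.68, Pvalb at 37.8 ± 4.03, Vip at 20.5 ± 2.71 and Reln at 11.3 ± 1.12 RPKM. The same order held in all 4 groups. Only for Slc32a1 and Pvalb did the ranges of neighbours overlap, in both groups of the miR-34 experiment, where Slc32a1 was at 38.6 to 44.7 RPKM and Pvalb at 34.6 to 43.8 RPKM in the GFP Ctrl mice. Over all 12 mice on 1 common scale, the GABA genes varied least, with a highest CPM of 1.19 times the lowest for Gad1, 1.2 times for Gad2 and 1.17 times for Slc32a1. Vip, at 1.69 times, and Reln, at 1.59 times, varied most.

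**Figure D2:**
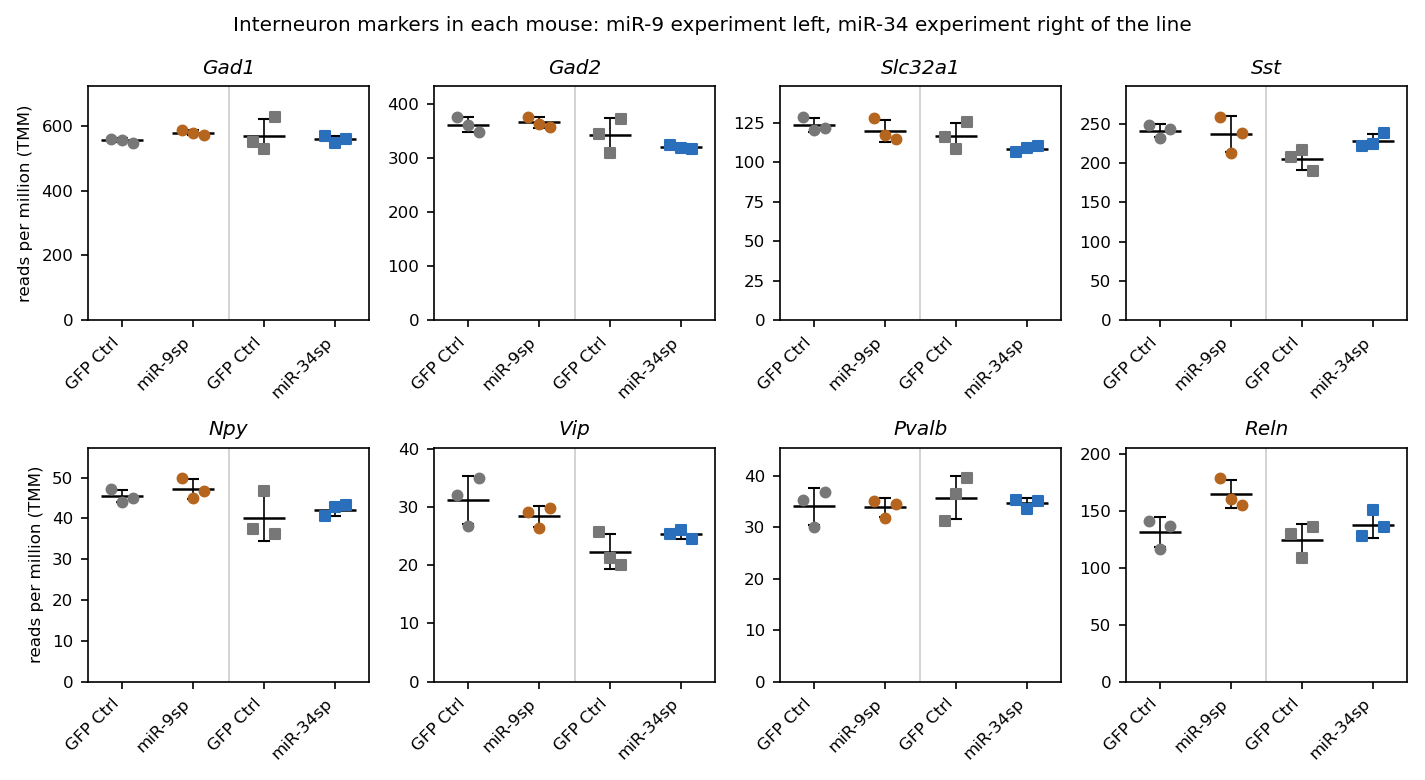
Level of the 8 counted markers in each mouse, in CPM after TMM scaling within an experiment (y axis from 0), for GFP Ctrl and GFP-miR-9sp (circles, left of the line) and GFP Ctrl and GFP-miR-34sp (squares, right of it). Horizontal lines are group means and bars are the SD of 3 mice. The GFP-miR-9sp mice lie above their GFP Ctrl mice for Reln and Gad1, and the GFP-miR-34sp mice above theirs for Sst.

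The miR-9 experiment asked which hippocampal transcripts change when miR-9 is sequestered in neurons. None of the 8 markers passed the adjusted limit (edgeR quasi-likelihood test, Benjamini-Hochberg over 13045 genes, 0.05), as was so for all genes, of which 0% were called. At an unadjusted p under 0.05 there was 1 marker of 8, Reln, against 4.73% of all genes (617, of which 52.2% were higher; 28.1% were higher among those so called when total counts alone were used for scaling). DESeq2 and limma-trend also called 0 of the 8 after adjustment. The log2 fold changes had a median of 0.005, beside -0.001 over all genes tested, and 4 of 8 were above 0.

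Reln, the gene of reelin, had the largest difference of the markers after GFP-miR-9sp. Its level was 117, 137 and 141 CPM in GFP Ctrl mice 2, 8 and 16, and 155, 179 and 161 CPM in GFP-miR-9sp mice 9, 17 and 23. All sponge mice were thus above all control mice, which was so in this direction for 5.21% of genes. The log2 fold change was 0.32 (SE 0.074, 95% interval 0.16 to 0.49), a level 25.2% higher, with an edgeR unadjusted p = 0.0014 and an adjusted p = 0.970. Without any single mouse it stayed between 0.25 and 0.38. The criterion in the study's methods was an unadjusted p under 0.05 in an unpaired test with group means differing by more than 1.2 times. It called 188 genes, and Reln was the only marker among them. The criterion was applied to genes filtered on GFP Ctrl mice. The edgeR test, filtered on all mice of the experiment, covered 13045 genes.

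Reelin in the hippocampus comes from interneurons and from Cajal-Retzius cells, and the other Cajal-Retzius genes measured were few. Trp73, Lhx1 and Lhx5 are transcription factors of these cells. Their means were 0.094, 0.37 and 0.43 CPM in GFP Ctrl and 0.10, 0.50 and 0.30 CPM in GFP-miR-9sp mice. Of the 7 listed genes 2 had 0 reads in all mice, which was not taken as absence from the tissue. Ndnf, shared by Cajal-Retzius and neurogliaform cells, was at 31.5 to 33.6 CPM in GFP Ctrl and 31.4 to 37.0 CPM in GFP-miR-9sp mice, with a log2 fold change of 0.07 (SE 0.067). Which cells held the Reln reads was not tested.

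The genes of GABA synthesis and loading differed little after GFP-miR-9sp. Gad1 was at 558, 548 and 559.9 CPM in GFP Ctrl and 574, 589 and 577 CPM in GFP-miR-9sp mice, all of the latter higher, by 4.36% (log2 0.06, 95% interval -0.02 to 0.14, edgeR unadjusted p = 0.113). Gad2, the only marker with a miR-9 heptamer, was at 360.5, 348 and 376 CPM in GFP Ctrl and 358, 377 and 362 CPM in GFP-miR-9sp mice. These ranges overlapped, and the log2 fold change of Gad2 was 0.02 (95% interval -0.08 to 0.11). For Slc32a1, GFP Ctrl mice were at 120.4, 121 and 129 CPM and GFP-miR-9sp mice at 115, 128 and 117 CPM, which also overlapped, with a log2 fold change of -0.04 (95% interval -0.15 to 0.07).

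The subclass markers overlapped between GFP-miR-9sp and GFP Ctrl. Sst was at 232 to 248 CPM in GFP Ctrl and 214 to 259.6 CPM in GFP-miR-9sp mice, and Npy at 44.2 to 47.1 and 45.1 to 49.9 CPM. Vip was at 26.9, 35.1 and 32.1 CPM in GFP Ctrl and 29.9, 29.2 and 26.5 CPM in GFP-miR-9sp mice, with a log2 fold change of -0.13 (95% interval -0.34 to 0.08), which was -0.23 without GFP Ctrl mouse 2 and -0.05 without GFP Ctrl mouse 8. Pvalb, at 29.98 to 36.9 and 31.9 to 35.2 CPM, had a log2 fold change of -0.01 (95% interval -0.19 to 0.17).

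In the miR-34 experiment the same question was put for miR-34, and none of the 8 markers passed the adjusted limit by edgeR, DESeq2 or limma-trend. Of 12492 genes 0.064% were called by edgeR, 8 genes that were all lower and held 4 choroid plexus markers. At an unadjusted p under 0.05 there was again 1 marker of 8, Sst, against 6.43% of all genes. The median log2 fold change of the 8 markers was 0.02, beside -0.001 for all genes tested, and 4 were above 0.

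Sst, encoding somatostatin, was higher in all GFP-miR-34sp mice. It was at 217, 190.2 and 208 CPM in GFP Ctrl mice 4, 8 and 10 and at 239, 222 and 225 CPM in GFP-miR-34sp mice 3, 13 and 18, so that the groups did not overlap, in a direction shared by 5.79% of genes. The log2 fold change was 0.15 (SE 0.050, 95% interval 0.04 to 0.26), a level 11.3% higher (edgeR unadjusted p = 0.0108, adjusted p = 0.608). It stayed between 0.10 and 0.20 without any single mouse, and Sst did not meet the criterion of the study's methods. Npy, which is often made by the same cells, was at 36.3 to 46.8 CPM in GFP Ctrl and 40.5 to 43.3 CPM in GFP-miR-34sp mice, and these ranges overlapped. Its log2 fold change was 0.07, and 0.20 without GFP Ctrl mouse 4 (adjusted p = 0.765).

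The GABA genes had negative log2 fold changes after GFP-miR-34sp, each with an interval that held 0. Gad1 was at 531, 629.6 and 551 CPM in GFP Ctrl and 559.9, 568 and 548 CPM in GFP-miR-34sp mice (log2 -0.03, 95% interval -0.15 to 0.09). Gad2 was at 309.7, 373 and 344 CPM in GFP Ctrl and 317, 324 and 318 CPM in GFP-miR-34sp mice (log2 -0.10, 95% interval -0.22 to 0.02). Slc32a1 was at 108, 125 and 116 CPM in GFP Ctrl and 110.2, 107 and 109 CPM in GFP-miR-34sp mice (log2 -0.10, 95% interval -0.22 to 0.01). In each of these genes GFP Ctrl mouse 8 was the highest of the 6 mice, and without it the log2 fold change was 0.05 for Gad1, -0.03 for Gad2 and -0.05 for Slc32a1. Without GFP Ctrl mouse 4, the lowest of the 3 GFP Ctrl mice in each, it was -0.08 for Gad1, -0.16 for Gad2 (edgeR unadjusted p = 0.0054, adjusted p = 0.615) and -0.15 for Slc32a1 (adjusted p = 0.765). Mouse 8 also had the highest choroid plexus sum, 2366 CPM, and the highest striatal sum, 137 CPM against 72.0 to 89.1 CPM in the other 5 mice. The part of neighbouring tissue in these values was not tested.

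Vip, Reln and Pvalb overlapped between GFP-miR-34sp and GFP Ctrl. Vip was at 21.3, 20.1 and 25.8 CPM in GFP Ctrl and 24.5, 25.4 and 26.2 CPM in GFP-miR-34sp mice (log2 0.17, 95% interval -0.03 to 0.38). Without GFP Ctrl mouse 8 this value was 0.10, and without GFP Ctrl mouse 10 it was 0.30 (edgeR unadjusted p = 0.0050, adjusted p = 0.337). Reln was at 109, 136 and 129.5 CPM in GFP Ctrl and 136, 128 and 150.5 CPM in GFP-miR-34sp mice (log2 0.14, 95% interval -0.03 to 0.32), and the value was 0.06 without GFP Ctrl mouse 4 and 0.21 without GFP Ctrl mouse 8. The fast-spiking marker Pvalb was at 31.3 to 39.6 CPM in GFP Ctrl and 33.5 to 35.3 CPM in GFP-miR-34sp mice.

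A single model over all 12 mice tested whether the sponges differed in effect. The difference, GFP-miR-34sp effect minus GFP-miR-9sp effect, passed the adjusted limit for 0 of 8 markers and for 0% of 12835 genes (0 of 8 at an unadjusted p under 0.05, against 6.10% of all genes). The largest was that of Vip, 0.30 (SE 0.15, 95% interval -0.01 to 0.62), followed by Reln at -0.18 (95% interval -0.45 to 0.08) and Sst at 0.18 (95% interval -0.02 to 0.37). An exact two-sided permutation test of a single marker, 3 mice against 3, can give no p below 0.1.

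**Figure D3:**
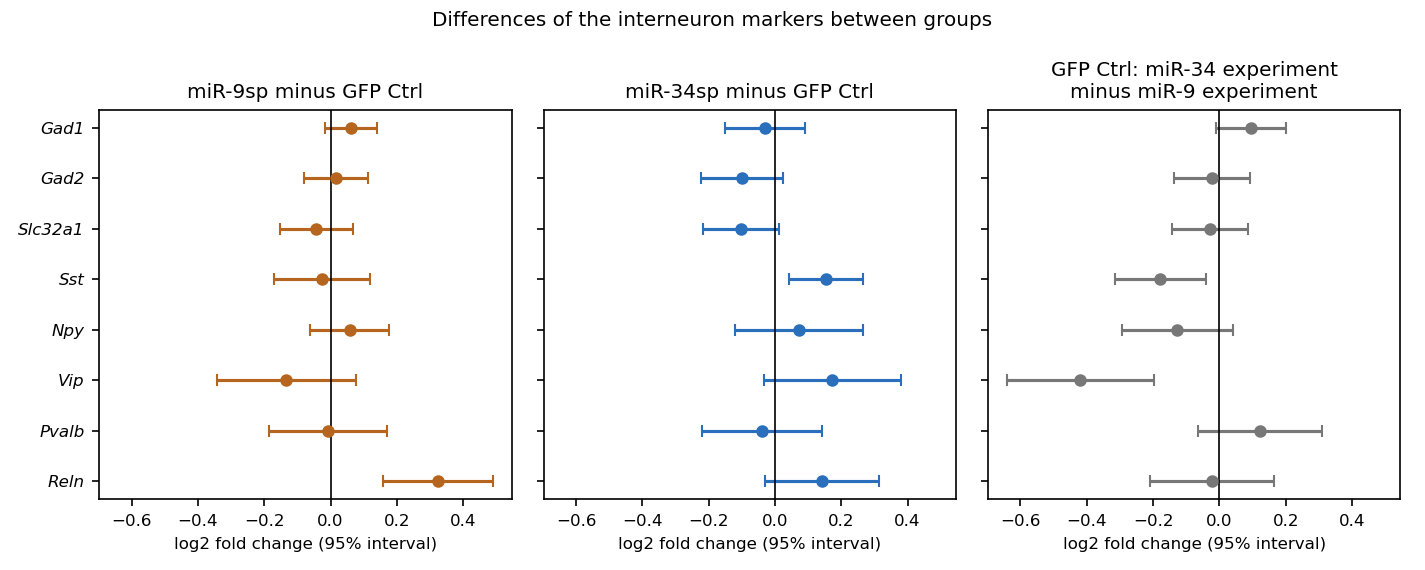
Log2 fold change of the 8 counted markers (points) with 95% intervals (bars) for GFP-miR-9sp minus GFP Ctrl, GFP-miR-34sp minus GFP Ctrl, and the GFP Ctrl mice of the miR-34 experiment minus those of the miR-9 experiment; the black line is 0. Only the intervals of Reln in the left panel, Sst in the middle panel and Sst and Vip in the right panel lie apart from 0.

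Genes that work with the markers were counted from lists by function. Of 7 genes that take up, break down or respond to GABA or supply its precursor, 0 passed the adjusted limit in either experiment, with median log2 fold changes of 0.02 (GFP-miR-9sp) and -0.01 (GFP-miR-34sp). Slc38a1, a glutamine transporter, was at 6.81 to 8.08 CPM in GFP Ctrl and 4.51 to 6.37 CPM in GFP-miR-34sp mice (log2 -0.45, edgeR unadjusted p = 0.0156), and it did not pass after adjustment.

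Among 16 transcription factors and other genes of the interneuron lineage, 13 were tested and 0 passed the adjusted limit in either experiment. The median log2 fold change was -0.03 with GFP-miR-9sp and 0.03 with GFP-miR-34sp. Dlx6 was at 5.45 to 5.64 CPM in GFP Ctrl and 3.97 to 4.92 CPM in GFP-miR-9sp mice (log2 -0.31, edgeR unadjusted p = 0.0275). Dlx1 and Dlx2, further factors of the same family, were counted at means of 21.3 and 9.73 CPM in GFP Ctrl and 20.2 and 9.94 CPM in GFP-miR-9sp mice.

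Of 25 further subclass genes 2 had 0 reads in all mice, Htr3a among them, which was not taken as absence from the tissue. With GFP-miR-9sp 20 were tested and 0 passed the adjusted limit, and the median log2 fold change was -0.02. Chodl, a marker of a rare Sst-expressing class, was at 0.89 to 1.91 CPM in GFP Ctrl and 0.47 to 0.63 CPM in GFP-miR-9sp mice (log2 -1.28, edgeR unadjusted p = 0.0029). This rests on few reads, 93 in the GFP Ctrl mice together and 32 in the GFP-miR-9sp mice. In GFP Ctrl mice of the miR-34 experiment Chodl was at 0.45 to 0.76 CPM. With GFP-miR-34sp 19 were tested and 0 passed, with a median of 0.04. The peptide genes Tac1 and Penk had log2 fold changes of -0.37 each (edgeR adjusted p = 0.574 and adjusted p = 0.709). Both are also abundant in the striatum. Of 7 striatal genes tested in the same mice 0 passed the adjusted limit and 2 had log2 fold changes above 0, with a median of -0.29. Ppp1r1b, Six3 and Adora2a were at -0.47, -2.53 and -1.11. Of 8 striatal genes listed, 1 was under 1 CPM on average in GFP Ctrl and 2 in GFP-miR-34sp mice. Their summed level was 78.1, 89.1 and 137 CPM in GFP Ctrl mice 10, 4 and 8. It was 72.0 to 80.5 CPM in GFP-miR-34sp mice, which overlapped. The share of striatal tissue in Tac1 and Penk was not tested.

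Receptors of the markers' products numbered 15, of which 12 were tested and 0 passed the adjusted limit in either experiment. With GFP-miR-9sp 1 receptor gene was higher and 2 were lower at an unadjusted p under 0.05, against 4.73% of all genes in either direction. Sstr3 was at 53.3 to 57.4 CPM in GFP Ctrl and 62.7 to 64.1 CPM in GFP-miR-9sp mice (log2 0.20, edgeR unadjusted p = 0.0012). Sstr2 was at 6.63 to 8.40 CPM in GFP Ctrl and 4.86 to 5.94 CPM in GFP-miR-9sp mice (log2 -0.40, edgeR unadjusted p = 0.0120). Vipr2, a receptor of VIP, had a log2 fold change of -0.79 (edgeR unadjusted p = 0.0496). With GFP-miR-34sp 0 of the 12 receptors had an unadjusted p under 0.05, against 6.43% of all genes.

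The GFP Ctrl mice of the experiments received the same vector, so their comparison shows how far the markers vary with experiment. Depth and mice differ between the experiments and cannot be told apart. The paper gives the same library preparation for both. In the column names totRNA stands for the miR-9 experiment and not for the other, and its meaning is not given in the sources used here. On a scale common to all 12 mice, Vip was at 26.3, 34.5 and 31.4 CPM in GFP Ctrl mice of the miR-9 experiment and 21.8, 20.4 and 26.4 CPM in those of the miR-34 experiment, with a narrow overlap between the groups. Its log2 fold change was -0.42 (SE 0.10, 95% interval -0.64 to -0.20, adjusted p = 0.0078), a level 25.2% lower, and Vip was the only marker of 8 called, against 25.2% of 12835 genes (10.2% in this direction). Leaving out any single mouse gave -0.54 to -0.33, with Vip called each time. Sst was at 227, 239.9 and 244 CPM in the miR-9 experiment and 222, 194 and 213 CPM in the miR-34 experiment, without overlap, in a direction shared by 17.9% of genes. The log2 fold change of Sst was -0.18 (SE 0.064, adjusted p = 0.0556), and it passed the limit with DESeq2 (adjusted p = 0.0274) and with RLE size factors (adjusted p = 0.0387). Without GFP Ctrl mouse 4 of the miR-34 experiment 3 markers were called, Vip, Sst and Npy. The log2 fold change of Npy was -0.13 (SE 0.078, adjusted p = 0.269) with all mice, -0.25 without mouse 4 (adjusted p = 0.0129) and -0.06 without GFP Ctrl mouse 8 of the miR-34 experiment. Gad1, Gad2, Slc32a1, Pvalb and Reln had log2 fold changes of -0.03 to 0.12 and were not called.

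Vip differed together with other genes between the GFP Ctrl groups. Of 8 neocortex markers 6 were lower in the miR-34 experiment at the adjusted limit, against 10.2% of all genes tested, with a median log2 fold change of -0.53, and their summed level was 317 to 407 CPM in GFP Ctrl mice of the miR-9 experiment and 239.5 to 269 CPM in those of the miR-34 experiment. Of 13 interneuron lineage genes tested 3 were lower, among them Dlx6os1 at -0.21 and Satb1 at -0.65, and of 20 subclass genes 6 were lower, among them Lamp5 at -0.41 and Cplx3 at -1.32, to be read against the same 10.2%. None of these lists had a member called higher. Lamp5 is in both the neocortex and the subclass list, so these are not separate. Of 12 receptor genes tested 3 were lower, against the same 10.2%. Their log2 fold changes ran from -1.19, that of Cckbr, the receptor of cholecystokinin in the brain, to 0.63. Of 6 microglia markers 2 were lower, and of 8 markers of excitatory neurons 2 were higher and 1 lower. Choroid plexus genes had 4 of 7 tested members called higher, against 15.1% of all genes tested. The part of neighbouring tissue in the lower Vip level was not tested.

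**Figure D4:**
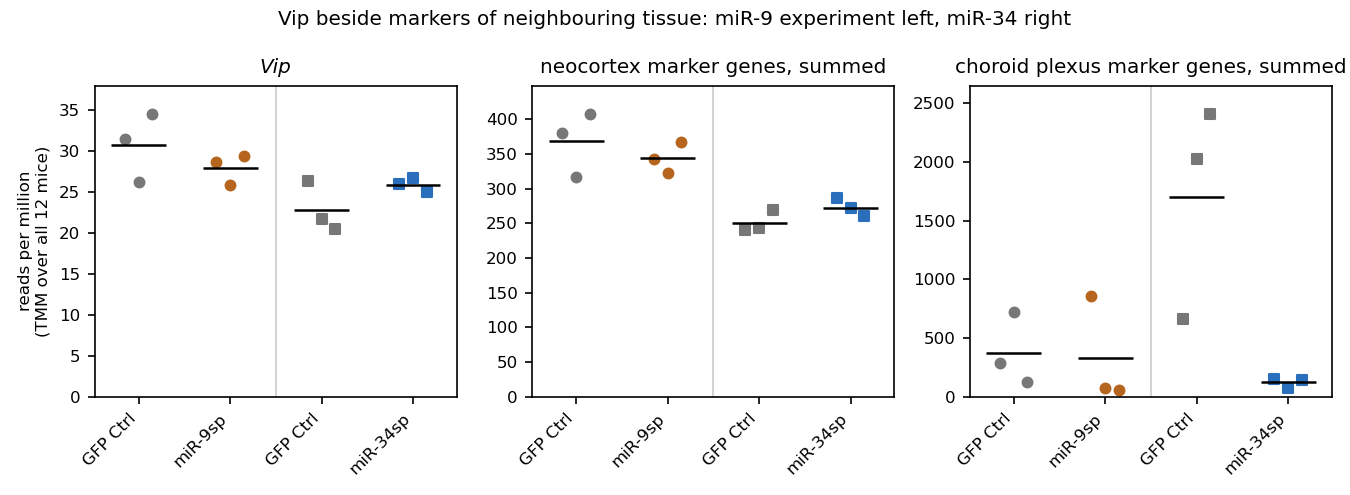
Level of Vip (left), the summed level of 8 neocortex markers (middle) and of 8 choroid plexus markers (right) in each mouse, in CPM on a TMM scale common to all 12 mice (y axis from 0), with group means as lines; circles are mice of the miR-9 experiment and squares of the miR-34 experiment. The neocortex sums of the miR-9 experiment, 317 to 407 in GFP Ctrl, lie above those of the GFP Ctrl mice of the miR-34 experiment, 239.5 to 269, and the 2 highest choroid plexus sums are from GFP Ctrl mice of the miR-34 experiment.

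Per length and within a mouse, the markers were also set against Gad1. Gad2 was 0.36 to 0.39 of Gad1 in GFP Ctrl and 0.36 to 0.37 in GFP-miR-9sp mice of the miR-9 experiment, which overlapped. In the miR-34 experiment it was 0.33523 to 0.35867 in GFP Ctrl and 0.32475 to 0.33364 in GFP-miR-34sp mice, also with a very narrow gap. Slc32a1 was 0.22957 to 0.24247 of Gad1 in GFP Ctrl and 0.21634 to 0.22954 in GFP-miR-34sp mice, with a very narrow gap. Reln was 0.058 to 0.070 of Gad1 in GFP Ctrl and 0.075 to 0.084 in GFP-miR-9sp mice, without overlap. In the miR-34 experiment the ratio of Reln to Gad1 was 0.057 to 0.065 in GFP Ctrl and 0.062 to 0.076 in GFP-miR-34sp mice, which overlapped. Sst was 1.63 to 2.21 times Gad1 in GFP Ctrl and 2.11 to 2.30 times in GFP-miR-34sp mice, also with an overlap, and the lowest ratio was that of GFP Ctrl mouse 8. Vip was 0.10 to 0.14 of Gad1 in GFP Ctrl mice of the miR-9 experiment and 0.067 to 0.099 in those of the miR-34 experiment, without overlap. The ratios of Gad2, Slc32a1 and Sst to Gad1 were also lower without overlap in GFP Ctrl mice of the miR-34 experiment. The share of all gene pairs whose ratios separate in this way was not counted. All ratios to Gad1 share its values, so they are not separate. Gad1 had a log2 fold change of 0.09 between these GFP Ctrl groups, beside -0.02 for Gad2, -0.03 for Slc32a1 and -0.18 for Sst. Over all 12 mice Slc32a1 was 0.22 to 0.27, Npy 0.34 to 0.52 and Pvalb 0.19 to 0.25 of Gad1.

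The highest correlations from mouse to mouse were among the GABA genes, between Slc32a1 and Reln and between Sst and Npy. The log2 levels of the 8 markers were taken as deviations from the mean of the mouse's own group, and all 28 pairs were compared over the 12 mice with exact permutations within groups. Slc32a1 and Reln had r = 0.815 (exact permutation p = 0.0054, adjusted p = 0.151; 0.772 without the 2 mice farthest from the median) and rho = 0.888 (exact permutation p = 0.0023, adjusted p = 0.0648), with r = 0.813 in the miR-9 and 0.817 in the miR-34 experiment. Gad1 and Gad2 had r = 0.879 (exact permutation p = 0.0270, adjusted p = 0.189) and rho = 0.748 (exact permutation p = 0.0255, adjusted p = 0.238), with r = 0.907 in the miR-9 and 0.915 in the miR-34 experiment. Without the 2 mice farthest in Gad1, GFP Ctrl mice 4 and 8 of the miR-34 experiment, r was 0.474. Sst and Npy, peptides often made by the same cells, had r = 0.721 (exact permutation p = 0.0193, adjusted p = 0.189; 0.766 without the 2 farthest mice) and rho = 0.797 (exact permutation p = 0.0116, adjusted p = 0.162). None of the 28 pairs passed after adjustment. The sign of r differed between the experiments in 15 of the 28 pairs. As examples, Slc32a1 and Npy had r = 0.876 in the miR-9 and -0.794 in the miR-34 experiment, and Pvalb and Vip 0.980 and -0.982. Each of these rests on 6 mice.

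**Figure D5:**
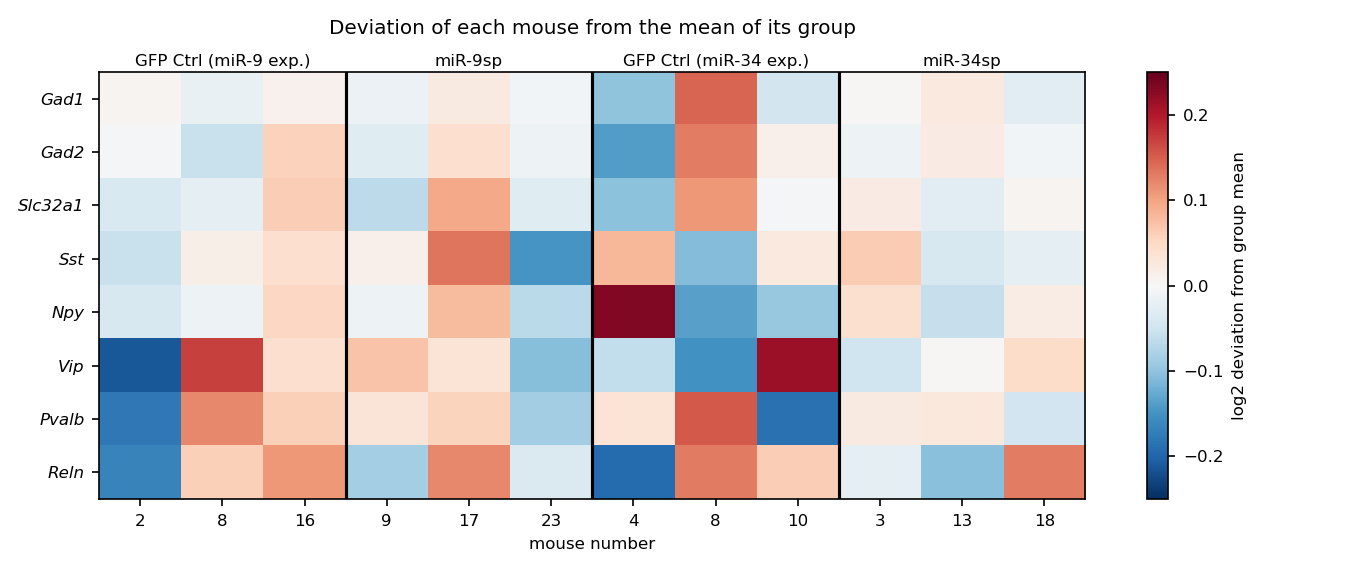
Deviation of each mouse (columns, by mouse number and group) from the mean of its own group for the 8 counted markers (rows), as log2 of CPM; red is above and blue below the group mean. In GFP Ctrl mouse 8 of the miR-34 experiment Gad1, Gad2, Slc32a1, Pvalb and Reln are above and Sst, Npy and Vip below the mean, and mouse 4 of that group has the highest Npy deviation.

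Genes were compared by mouse-to-mouse deviations as a description over 12 mice, in each of which all genes share the library and its depth. The genes most like a marker were sought among 8763 others with more than 100 scaled reads. For Slc32a1 they were Arhgap18 (r = 0.932), Nlgn2 (r = 0.926), which encodes the adhesion protein neuroligin of inhibitory synapses, and Zfp108. For Gad1 they were Ddx31 (r = 0.947), Fads2 and Vrk3, and for Gad2 Bud13 (r = 0.947), Slc2a1 and Tm7sf3. The signs of the deviations matched in 5 of 12 mice for Gad1 with Vrk3 and in 8 for Gad2 with Bud13. These r values were not computed without the mice farthest from the median. Sst was closest to Nktr (r = 0.958), Masp1 and Pisd-ps1, and Npy to Psmg1 (r = 0.942), Alms1 and Pisd. The list for Pvalb was Bmper (r = 0.946), Wdr54 and Adi1, and that for Reln was Spcs1 (r = 0.920), Crip2 and Spen. Vip was closest to an entry without a symbol (r = 0.943), Prr36 and 1700030J22Rik. No marker was among the 3 closest genes of another.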

How the data were processed

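RNA-seq of 12 hippocampi was analysed. The authors deposited unscaled counts of reads on each of 32850 RefSeq transcript entries, made from trimmed 50 bp single-end reads of poly-A enriched RNA, beside the other value of each file, the entry length in bases. The paper names mm9, the submitters' processing notes name STAR and mm10, and the counting tool is not given in the sources used here. Entries were joined to symbols by RefSeq accession (98.7%, GRCm38.p6 table) and summed, and reads on entries without a symbol were 0.773% to 2.18% of a mouse's total. Mice of the GFP Ctrl group whose labels name no experiment were taken as those of the miR-9 experiment, since each experiment had 3.

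Each sponge was compared with GFP Ctrl of its experiment in edgeR 4.0.16 under R 4.3.3 (quasi-likelihood test, TMM), for genes with a mean above 10 reads after scaling to the average total, with Benjamini-Hochberg adjustment and a limit of 0.05. All 12 mice in 1 model gave the comparisons across experiments. DESeq2 1.42.0, limma 3.58.1 on log2 CPM (prior count 1), other size factors, filters and counting units, the criterion of the methods and leaving out each mouse were alternatives. The labels give each sample as a different mouse. The code was tested on simulated data. The markers and lists were chosen with earlier results of these data known. All markers are named. From the other lists genes with an unadjusted edgeR p under 0.05 in an experiment are named, at most 4 per list and experiment (some are not reported here), and others named beside them were chosen after their values were seen. Ranges cover 3 mice per group. PCR copies cannot be told apart, so counting limits cover counting error only.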

Additional observations from a re-analysis of the deposited data

How the results depend on the processing

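No paired analysis was possible because the sponge and GFP Ctrl mice of an experiment share no mouse number. With GFP-miR-9sp 0 genes were called by edgeR (617 at an unadjusted p under 0.05), 2 by DESeq2, 2 with no filter and 188 by the criterion of the methods (1 of them a marker, Reln). With GFP-miR-34sp 8 were called, against 36 by DESeq2, 81 with no filter, 4 with RLE size factors, with total counts alone, with the filter on GFP Ctrl mice and by separate entries, 0 in 1 model of 12 mice and 250 by the criterion. For each sponge the criterion called more genes here than the paper reports, and the cause was not tested. The difference between the sponges had 0 calls, 5 by DESeq2 and 4 with no filter. Between the GFP Ctrl groups 1 marker was called, and 2 were called by DESeq2, with RLE size factors, total counts alone, no filter or separate entries. Scaling by total counts alone made 35.2% of the unadjusted calls between the GFP Ctrl groups higher, against 56.7%, and 64.5% against 41.8% for the difference between the sponges. Gad2 with GFP-miR-9sp turned to -0.0050 with total counts alone and -0.0049 by the criterion. Leaving out each mouse gave 0 to 1 calls with GFP-miR-9sp, 0 to 57 with GFP-miR-34sp (0 without GFP Ctrl mouse 4 or any sponge mouse, 1 without GFP Ctrl mouse 8, 57 without GFP Ctrl mouse 10), 0 to 1 for the difference, and 1 to 3 markers between the GFP Ctrl groups. It turned the sign of small log2 fold changes: with GFP-miR-9sp Gad2 (-0.010 to 0.046), Sst (-0.093 to 0.045) and Pvalb (-0.092 to 0.050), with GFP-miR-34sp Gad1 (-0.078 to 0.047) and Pvalb (-0.13 to 0.041), for the difference Pvalb (-0.13 to 0.054) and Npy (-0.052 to 0.13), and between the GFP Ctrl groups Gad2 (-0.086 to 0.044), Slc32a1 (-0.082 to 0.021) and Reln (-0.10 to 0.065). The cause of these changes was not tested. Adjusted p-values of Reln with GFP-miR-9sp ranged from 0.0836 to 0.971 over the alternatives with all mice, and those of Sst with GFP-miR-34sp from 0.224 to 0.836. At 235 to 352 Vip reads per GFP Ctrl mouse of the miR-34 experiment, counting alone gave a spread of 6.12% of the level.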
